A study of Mus musculus with 8 samples.

Results

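The genes described here are 9 genes of epithelial cell junctions and of the epithelial cytoskeleton: Cdh1, Epcam, Dsp, Jup, Krt5, Krt14, Krt8, Krt18 and Krt19. They were taken as a sign of epithelial cells in cultures labelled as fibroblasts. All of their probe sets were used, which made 16 of the 45037 non-control probe sets on the array and 9 of the 18193 genes named by a probe set of 1 gene. The rule goes by gene name and uses no measured value. RNA came from mouse embryonic fibroblasts of strain C57BL6/J, isolated at stage E14.5 of gestation. The cells were either wild type (WT) or knockout (KO, Hif-p4h-1-/-) for Hif-p4h-1, the oxygen-sensing prolyl hydroxylase encoded by Egln2, and each genotype was kept in normoxia or in hypoxia. The 4 groups were therefore WT in normoxia, KO in normoxia, WT in hypoxia and KO in hypoxia, with 2 arrays in each, 1 in a first and 1 in a second set of 4 arrays. The knockout was carried by the mouse line itself, so every cell type in a KO culture carried it. The labels used here give neither the oxygen level, nor the time in hypoxia, nor the passage number, nor whether the 2 sets came from separate embryos. The p-values therefore speak only to variation among these arrays, part of which could be technical.

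E-cadherin, encoded by Cdh1, and EpCAM hold neighbouring epithelial cells together. Desmosomes are spot-like junctions in which desmoplakin (Dsp) and plakoglobin (Jup) tie cadherins of the desmoglein and desmocollin families to keratin filaments. Keratins polymerise only as pairs of a type I and a type II chain: Krt5 pairs with Krt14 in the basal layer of stratified epithelia, and Krt8 pairs with Krt18 or Krt19 in simple epithelia and in mesothelium, the lining of body cavities. Fibroblasts are classed as mesenchymal cells, whose main intermediate filament protein is vimentin.

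All values are log2 intensities, on which 1 unit is a factor of 2, and differences were tested with limma over all 45037 probe sets with the set as a block. A difference is said to have risen or fallen only at an adjusted p under 0.05. The labelled cell type was borne out by its markers: the 14 fibroblast and mesenchymal markers had means between 7.25 and 14.39, and Vim, which encodes vimentin, stayed between 14.33 and 14.45 on all 8 arrays. As a scale for probe sets of genes that fibroblasts should not use, the 44 olfactory receptor probe sets had means from 2.69 to 5.1, with a median of 3.31. This range is no strict limit of detection. Of 7 hepatocyte markers 3 had means above it, up to 6.08, and of 4 glial and melanoblast markers 1 did, at 6.11. Brightness depends on the probes as well as on the RNA, so levels were not ranked between genes. Egln2 read 8.84 and 9.07 in WT normoxia, 8.0 and 8.34 in KO normoxia, 8.95 and 9.13 in WT hypoxia and 8.66 and 8.85 in KO hypoxia. It was lower in KO in 4 of 4 array pairs, by -0.54 ± 0.066 (SE), and missed the threshold (adjusted p = 0.0531); the labels do not say whether its probe set lies in the deleted part. The 2 sets differed in 12272 probe sets. The 3′ minus 5′ difference of the control probe sets, a sign of RNA integrity, was higher in hypoxia in 4 of 4 pairs, by 0.1 to 0.17 for Actb and by 0.04 to 0.33 for Gapdh.

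Of the 16 epithelial probe sets, 1 rose and 1 fell in hypoxia over both genotypes. That is 12.5% of them, against a background of 15.8% of all probe sets called in that comparison (7.49% higher and 8.31% lower). The probe set that rose was that of Krt19, and the one that fell was 1 of the 2 of Epcam. Between KO and WT no epithelial probe set passed the threshold (limma, background 0.04%), while 5 had an unadjusted p under 0.05, against 6.45% of all probe sets. These were the 3 probe sets of Krt8, that of Krt18 and 1 of the 3 of Dsp. In the comparison of the second with the first set, 3 were higher and 2 lower, which is 31.2% of the 16 against a background of 27.2% (13.4% higher and 13.9% lower). Those 5 were the 3 probe sets of Krt8 and 2 of the 3 of Dsp. The median difference of the 16 was 0.14 for hypoxia against 0.003 over all probe sets, -0.08 for KO against -0.002, and -0.05 for the second set against 0.008. Both shares called, for hypoxia and for the set, lay near their background.

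**Figure D1:**
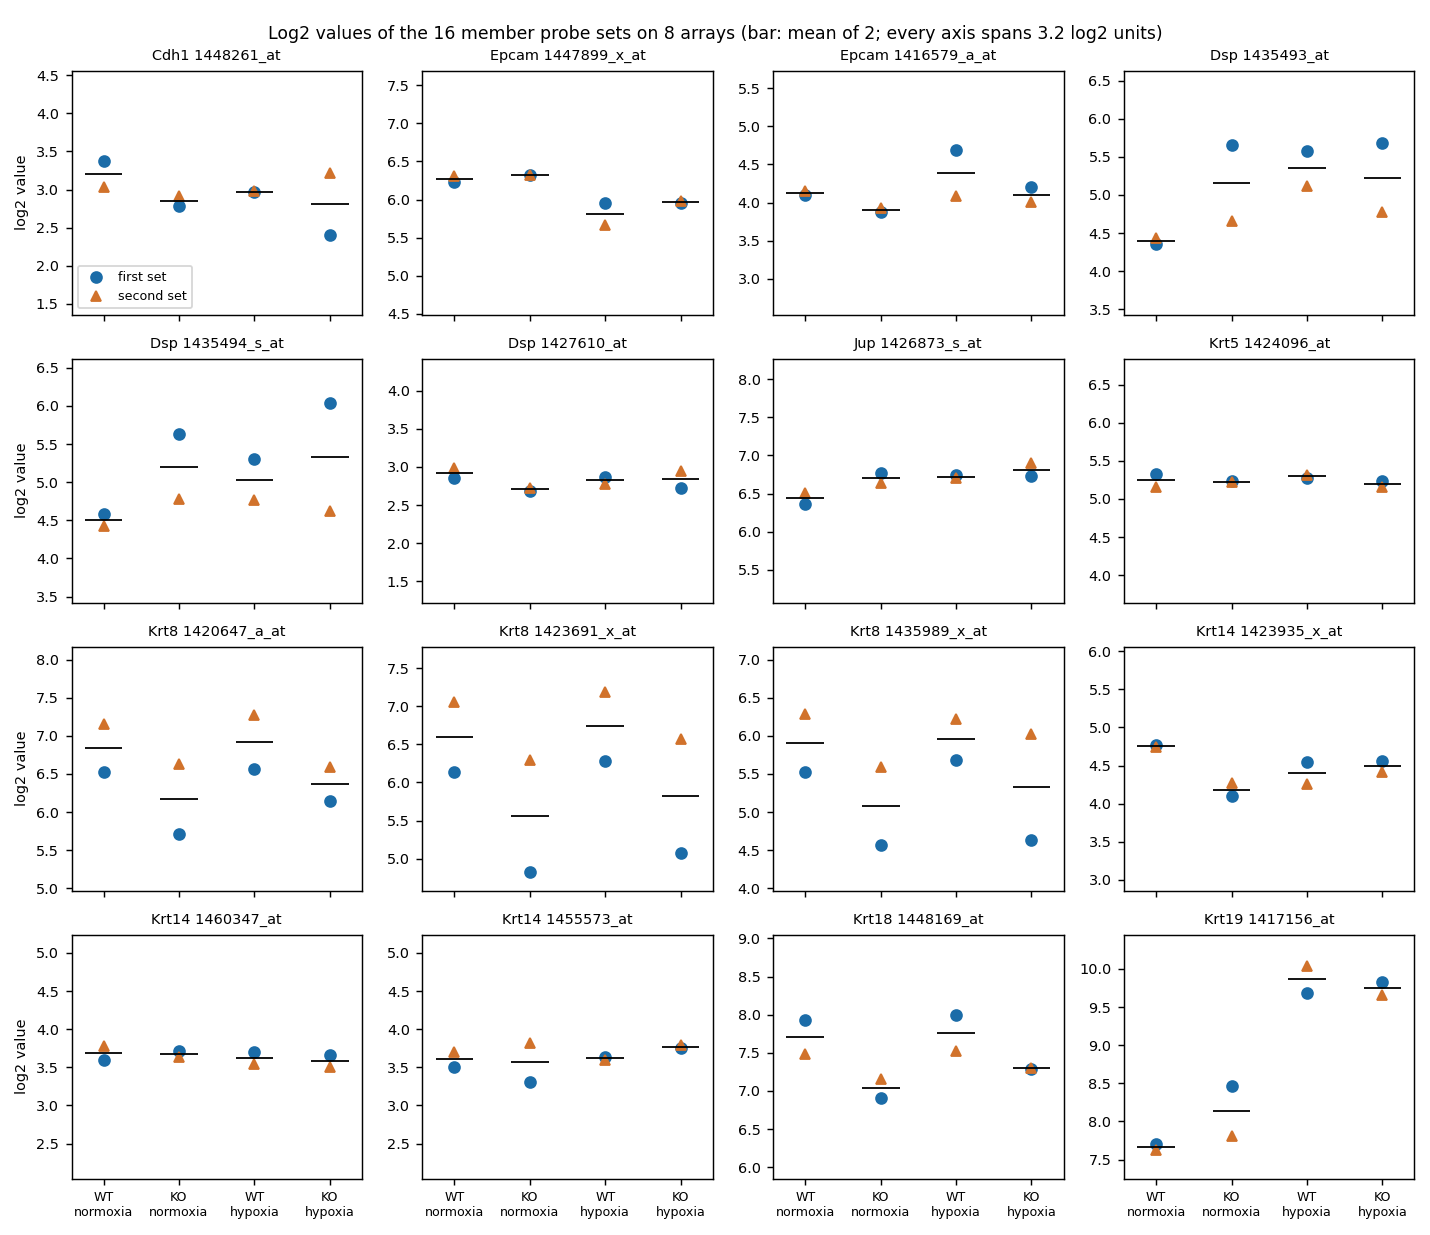
Log2 values of each of the 16 epithelial probe sets on the 8 arrays, by group, with circles for the first set, triangles for the second and a bar at the mean of 2; each vertical axis spans the same number of log2 units. Krt19 lies between 9.66 and 10.04 on the hypoxic arrays and between 7.62 and 8.46 on the normoxic ones, while Cdh1 and Krt5 vary little or without order.

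Krt19, a type I keratin of simple epithelia, was the one gene of the 9 with a rise in hypoxia. Its probe set (1417156_at) read 7.71 and 7.62 in WT normoxia, 8.46 and 7.81 in KO normoxia, 9.69 and 10.04 in WT hypoxia, and 9.83 and 9.66 in KO hypoxia. All 4 hypoxic arrays were higher than all 4 normoxic arrays, as in 5.57% of all probe sets, and the array of KO normoxia in the first set was the highest of the normoxic ones. Over both genotypes Krt19 rose by 1.91 ± 0.14 (SE), a 3.75-fold difference (adjusted p = 0.00017), and it was higher in 4 of 4 pairs, by 1.37 to 2.42. The 3′ minus 5′ difference of the controls was higher on the same arrays. Over all probe sets 7.49% were called higher in hypoxia and 8.31% lower. Of the markers of other cell types, 1 of 8 mesothelial ones rose in hypoxia (Bnc1, 0.70 ± 0.13, adjusted p = 0.00766, list median 0.11). Of 10 cardiac muscle ones 1 rose (Myl7, 1.36 ± 0.19, adjusted p = 0.00229, list median 0.0). None of 10 endothelial ones was called (list median 0.07), and 1 of 9 macrophage ones fell (Lyz2, -0.36 ± 0.072, adjusted p = 0.0117, list median -0.26). The part of RNA integrity or of these cells in the rise of Krt19 was not tested. Because these are bulk samples, more cells of a type and more RNA per cell cannot be told apart for this or any other gene.

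In WT cells Krt19 rose 4.59-fold in hypoxia (2.20 ± 0.19, adjusted p = 0.00109; 1.98 and 2.42 in the 2 sets). WT cells had 1 of the 16 epithelial probe sets called in hypoxia, 6.25% against a background of 7.29% (3.81% higher). In KO cells Krt19 rose 3.05-fold (1.61 ± 0.19, adjusted p = 0.00598; 1.37 and 1.85), and there too it was the 1 probe set called, against a background of 4.67% (2.18% higher). The smaller value in KO was not called as a difference: the interaction was -0.59 ± 0.27 (adjusted p = 0.998, unadjusted p = 0.0611) and came to -0.61 and -0.57 in the separate sets. None of the 16 probe sets had an interaction past the threshold in limma, where the background was 0% of all probe sets and 2.84% had an unadjusted p under 0.05; 2 of the 16 did. In normoxia Krt19 was 0.47 ± 0.19 higher in KO (adjusted p = 0.97; 0.75 and 0.19 by set), and in hypoxia the difference between genotypes was -0.12 (adjusted p = 0.988). The call in KO cells was lost without the KO hypoxia array of the second set (adjusted p = 0.0806), and without the set as a block both single-genotype calls were lost (adjusted p = 0.0688 in WT and 0.291 in KO), while the call over both genotypes stayed (adjusted p = 0.0168).

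The 5 probe sets of other genes whose mean-centred values lay closest to those of Krt19 over the 8 arrays belonged to Fam162a, Tmem45a, Slc2a1 and Ak4, with Slc2a1 present by 2 probe sets. The root mean square difference from Krt19 was 0.217 for Fam162a, 0.226 for Tmem45a, 0.234 and 0.25 for Slc2a1 and 0.236 for Ak4, in log2 units. Slc2a1 encodes the glucose transporter GLUT1 and Ak4 a mitochondrial adenylate kinase. In the first set Fam162a went from 11.39 in WT normoxia to 13.44 in WT hypoxia and from 11.57 to 13.45 in KO. Krt19 in KO normoxia of the first set stood above these probe sets in the plot of nearest patterns. The nearest probe sets were picked for likeness, so their likeness is a description.

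**Figure D2:**
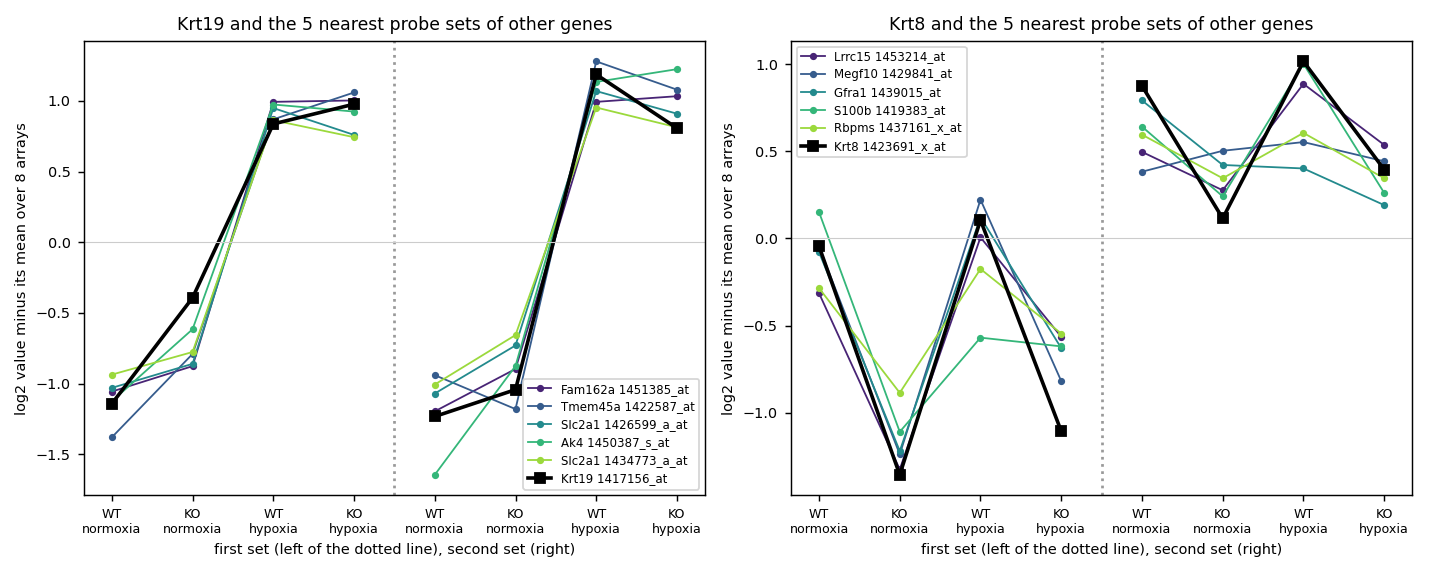
Log2 value minus the mean over 8 arrays for Krt19 (left panel, black squares) and Krt8 (right panel, black squares) with the 5 nearest probe sets of other genes in colour; arrays run along the horizontal axis, the first set left of the dotted line. Krt19 and its neighbours separate by oxygen, whereas Krt8 and its neighbours lie higher in the second set and, within the first set, higher in WT.

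Krt8 and Krt18, the type II and type I partners of simple epithelia, were lower in KO than in WT within each set, without passing the threshold over all probe sets. In mouse Krt8 and Krt18 are neighbours on chromosome 15, with 2 annotated genes between them (Gm36026 and Gm41404), none protein coding. Krt18 (1448169_at) read 7.93 and 7.49 in WT normoxia, 6.91 and 7.16 in KO normoxia, 8.0 and 7.53 in WT hypoxia, and 7.29 and 7.30 in KO hypoxia. All 4 KO arrays were lower than all 4 WT arrays, as in 0.759% of all probe sets. The difference was -0.57 ± 0.13, 1.49-fold lower in KO (unadjusted p = 0.00192, adjusted p = 0.368), or -0.87 and -0.28 by set.

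Since these 2 genes were both lower in KO within each set and lie side by side, the 250 bases before each start are shown from RefSeq promoters on build GRCm38.p6, on the gene's own strand; capitals mark CACCTG, the E-box bound by Snail and Zeb repressors, and GCGTG, a core of the hypoxia response element, searched with ACGTG on both strands. The Krt8 window is chr15:102004343-102004592 on the minus strand and the Krt18 window chr15:102027966-102028215 on the plus strand.
Krt8: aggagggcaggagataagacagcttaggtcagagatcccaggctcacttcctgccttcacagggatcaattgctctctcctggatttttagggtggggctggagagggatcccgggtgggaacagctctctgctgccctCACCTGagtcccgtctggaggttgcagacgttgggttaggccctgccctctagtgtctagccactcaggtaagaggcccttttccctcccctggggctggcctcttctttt
Krt18: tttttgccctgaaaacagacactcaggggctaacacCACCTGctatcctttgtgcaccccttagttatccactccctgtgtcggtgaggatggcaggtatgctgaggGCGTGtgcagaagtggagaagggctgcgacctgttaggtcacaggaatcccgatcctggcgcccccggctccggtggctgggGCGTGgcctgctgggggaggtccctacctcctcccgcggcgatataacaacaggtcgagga

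The Krt8 window held CACCTG at -111 and neither hypoxia core. The Krt18 window held CACCTG at -214 and GCGTG at -143 and -61, with positions counted from the start to the first base of the match. Among 32851 promoter windows of the same length, 17.2% held CACCTG, 28.2% held GCGTG, 16.6% held ACGTG and 38.6% held either core. Promoters of 7 of the 9 genes were in the table, all but those of Cdh1 and Krt19. Among the others, CACCTG lay in the windows of Epcam (-187 and -19) and Krt5 (-128), GCGTG in those of Krt14 (-61) and Dsp (-58), and neither in that of Jup. These matches are letters in a window and not measured binding.

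The 3 probe sets of Krt8 gave like patterns. The one with the widest range (1423691_x_at) read 6.13 and 7.05 in WT normoxia, 4.82 and 6.29 in KO normoxia, 6.28 and 7.19 in WT hypoxia, and 5.07 and 6.57 in KO hypoxia, the first set first. Within each set both KO arrays were lower than both WT arrays, but the KO arrays of the second set lay above the WT arrays of the first. Krt8 by this probe set was 1.97-fold lower in KO (-0.98 ± 0.13, unadjusted p = 6.69e-05, adjusted p = 0.0838; -1.26 and -0.69 in the 2 sets). The other probe sets gave -0.61 ± 0.10 (1420647_a_at, adjusted p = 0.204) and -0.73 ± 0.15 (1435989_x_at, adjusted p = 0.31). Centring the arrays on the fibroblast markers brought 1423691_x_at past the threshold (-0.95, adjusted p = 0.022), and over all alternatives its adjusted p ran from 0.022 to 1.0. The 3 probe sets of Krt8 and that of Krt18 were thus the 4 of 16 in which KO lay below WT within each set, and none lay above it in both. Of all probe sets 2.19% lay below and 1.77% above in this way. Probe sets of 1 gene are not independent, and Krt8 enters this count and those below 3 times. KO against WT in normoxia alone gave -1.04 (adjusted p = 0.52) for Krt8 1423691_x_at and -0.68 (adjusted p = 0.891) for Krt18, where 0.00666% of all probe sets were called and none of the 16, although 8 of the 16 had an unadjusted p under 0.05 (background 4.63%). In hypoxia alone the values were -0.92 (adjusted p = 0.987) and -0.47 (adjusted p = 0.987), with limma calling 0% of all probe sets and none of the 16, 4 of which had an unadjusted p under 0.05 (background 4.63%).

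Krt8 rose from the first to the second set by every probe set: 0.68 ± 0.10 (1.6-fold, adjusted p = 0.00174) for 1420647_a_at, 1.20 ± 0.13 (2.3-fold, adjusted p = 0.000368) for 1423691_x_at and 0.93 ± 0.15 (1.9-fold, adjusted p = 0.00221) for 1435989_x_at. Each was higher in the second set in 4 of 4 pairs, and leaving out any 1 of the 8 arrays kept all 3 calls. Its partner Krt18 stood at -0.16 ± 0.13 (adjusted p = 0.417), and Krt19 at -0.14 ± 0.14 (adjusted p = 0.517). The difference between Krt8 and Krt18 in this comparison was not tested. Hypoxia minus normoxia was 0.21 (adjusted p = 0.384) for Krt8 1423691_x_at and 0.16 (adjusted p = 0.502) for Krt18, so neither partner passed where Krt19 did. The probe sets of other genes with the closest pattern to Krt8 1423691_x_at over the 8 arrays belonged to Lrrc15 (root mean square difference 0.27), Megf10 (0.3), Gfra1 (0.309), S100b (0.331) and Rbpms (0.349).

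Markers of other cell types differed in the same comparisons. The mean over the 8 mesothelial markers was 4.81 to 4.95 in the first set. In the second set it was 5.76, 4.85, 5.89 and 5.19 in WT normoxia, KO normoxia, WT hypoxia and KO hypoxia. Its highest arrays were the 2 on which Krt8 was highest. In the first set, however, the mesothelial mean was nearly level, while Krt8 1423691_x_at differed there by -1.26 between KO and WT. Of these 8 genes, 4 had means no brighter than the brightest olfactory receptor probe set, Msln (4.72), Muc16 (3.32), Lrrn4 (5.05) and Gpm6a (4.96), while Upk1b (6.39), Wt1 (5.21), Upk3b (5.16) and Bnc1 (6.44) were above it. Upk3b rose by 1.47 ± 0.31 (adjusted p = 0.00845), Lrrn4 by 1.21 ± 0.35 (adjusted p = 0.034) and Bnc1 by 0.73 ± 0.13 (adjusted p = 0.00328) from the first to the second set. Gpm6a fell by 0.85 on the log2 scale (adjusted p = 0.0299). Thus 3 of the 8 were higher and 1 lower, against 13.4% and 13.9% of all probe sets. With 1 probe set per gene and a filter at the 25th percentile, 6293 of 13647 were called between the sets. Other lists had such calls as well. There 7 of 9 macrophage and 2 of 10 endothelial markers were lower in the second set, and 1 of 10 cardiac muscle ones was higher. Of the 14 fibroblast markers 8 were higher and 2 lower. Between KO and WT none of the 8 mesothelial markers was called. Gpm6a and Bnc1 were lower in KO in 4 of 4 pairs (Gpm6a -1.99 ± 0.24, adjusted p = 0.0531), Wt1 in 3, Msln, Upk3b, Upk1b and Lrrn4 in 2, and Muc16 in 0.

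The mean over the 9 macrophage markers was 5.96 to 7.58 on WT arrays and 5.34 to 5.95 on KO arrays. It was highest on the 2 WT arrays of the first set (7.58 and 7.26), where Krt18 was highest as well (7.93 and 8.0). Lyz2 fell in KO by 1.19 on the log2 scale (SE 0.072, adjusted p = 0.00244) and Csf1r by 1.37 (SE 0.14, adjusted p = 0.0299), and all 9 were lower in KO by the fit. The call on Csf1r held in 2 of 8 fits with an array removed and that on Lyz2 in 7 of 8, and the 2 other Csf1r probe sets gave -0.82 and -0.22 without a call. Only Ptprc (4.92) and Itgam (3.52) of them were no brighter than the brightest olfactory receptor. The 10 cardiac muscle markers averaged 4.62 to 5.24 in WT and 4.47 to 4.86 in KO, the 10 endothelial ones 4.45 to 4.66 and 4.49 to 4.79, and the 14 fibroblast ones 11.88 to 11.95 and 11.69 to 11.78. By the fit 10 of the 14 fibroblast markers were lower in KO and 4 higher, and 1 was called. That was Pdgfra, which fell by 0.72 on the log2 scale (SE 0.069, adjusted p = 0.0221). No fit that left out 1 array kept this call (0 of 8), and its 2 other probe sets gave -0.5 and -0.35 without a call. The part of any of these cells in the keratin differences was not tested.

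**Figure D3:**
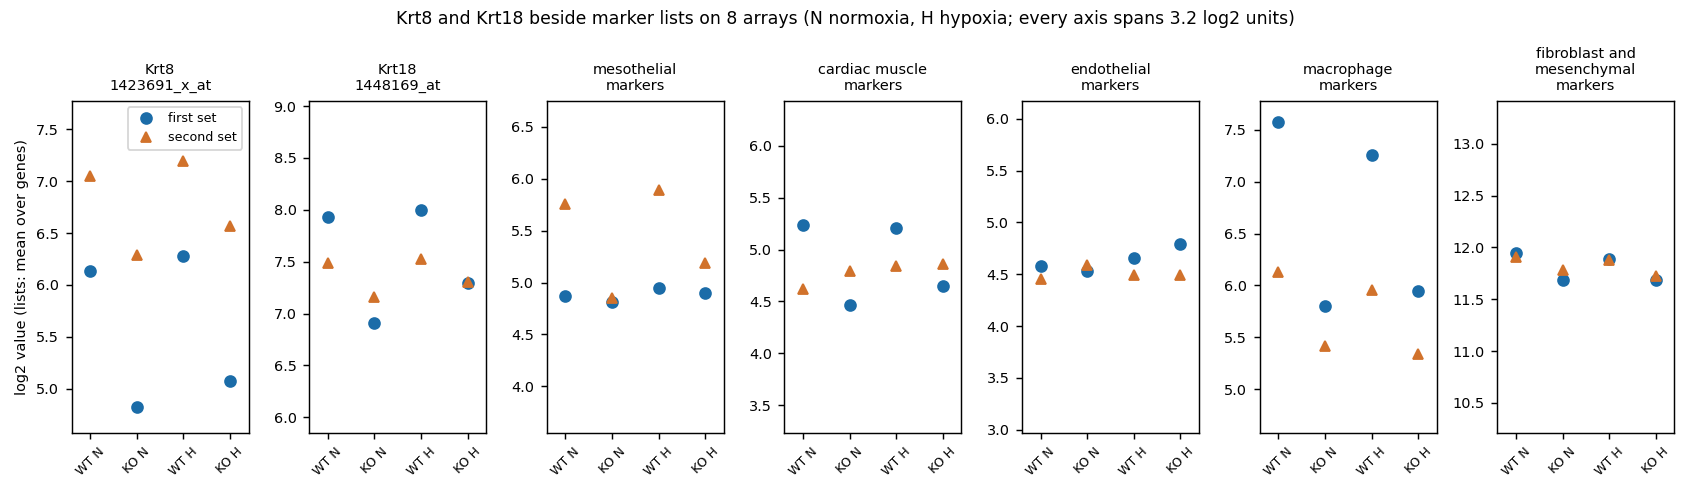
Log2 values of Krt8 1423691_x_at and Krt18 and the mean log2 value over each marker list on the 8 arrays, circles for the first set and triangles for the second, all axes spanning the same number of log2 units. Krt8 and the mesothelial mean are highest on the 2 WT arrays of the second set. Krt18 and the macrophage mean are highest on the 2 WT arrays of the first set.

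Desmoplakin, the plaque protein that anchors keratin filaments to desmosomes, was measured by 3 probe sets. Dsp 1435493_at read 4.36 and 4.43 in WT normoxia, 5.66 and 4.66 in KO normoxia, 5.58 and 5.12 in WT hypoxia, and 5.68 and 4.77 in KO hypoxia. The 2 WT normoxia arrays were the lowest, and in every other group the first set was higher than the second. Dsp 1435494_s_at read 4.58 and 4.42, 5.63 and 4.78, 5.31 and 4.76, and 6.04 and 4.62 in the same order, again highest on the KO arrays of the first set. The third probe set, 1427610_at, stayed between 2.68 and 2.99, and 40 of the 44 olfactory receptor probe sets were as bright or brighter, so it is a dim probe set on which no difference passed. The means of the first pair of probe sets, 5.03 and 5.02, lay just under that of the brightest olfactory receptor.

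Dsp fell from the first to the second set by 0.58 on the log2 scale (1435493_at, SE 0.18, adjusted p = 0.044) and by 0.75 (1435494_s_at, SE 0.19, adjusted p = 0.0191). These calls depended on single arrays: the first held in 2 of 8 fits with an array removed, those without a WT normoxia array, and the second in 4 of 8, those without a WT array. The adjusted p reached 0.169 without the KO hypoxia array of the first set for the first probe set and 0.0668 for the second without that same array. In WT cells Dsp 1435493_at was 1.94-fold higher in hypoxia (0.96 ± 0.25, adjusted p = 0.0593; 1.22 and 0.69 in the 2 sets), short of the threshold, and in KO cells it differed by 0.07 (adjusted p = 0.932). It passed in WT with 1 probe set per gene and a filter on dim ones (adjusted p = 0.0342) and with arrays centred on fibroblast markers (adjusted p = 0.0311). The interaction of genotype and oxygen was -0.89 ± 0.36 (adjusted p = 0.998). In normoxia the KO arrays were higher by 0.77 ± 0.25 (adjusted p = 0.97), but the set values were 1.3 and 0.23. For Dsp 1435494_s_at the hypoxia difference in WT cells was smaller, 0.54 ± 0.27 (adjusted p = 0.303). Its interaction was -0.41 ± 0.38 (adjusted p = 0.998), and its KO minus WT difference in normoxia was 0.71 ± 0.27 (adjusted p = 0.97).

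Plakoglobin, which links desmosomal cadherins to desmoplakin and also joins classical cadherins, varied little. Jup (1426873_s_at) read 6.37 and 6.51 in WT normoxia, 6.77 and 6.64 in KO normoxia, 6.74 and 6.70 in WT hypoxia, and 6.73 and 6.90 in KO hypoxia. The 2 WT normoxia arrays were the lowest, by a small margin, as for Dsp 1435493_at. The differences were 0.20 ± 0.095 for hypoxia (adjusted p = 0.227), 0.18 ± 0.095 for KO (adjusted p = 0.827) and 0.04 for the set (adjusted p = 0.837).

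Of 12 other desmosome genes, 11 were measured and 7 of these had means within the olfactory range. Pkp2, a plakophilin of the desmosomal plaque, was among the brighter ones, with 9.46, 9.65, 9.23 and 9.49 in WT normoxia, KO normoxia, WT hypoxia and KO hypoxia of the first set and 10.64, 10.78, 10.39 and 10.45 in the second. All second-set arrays were above all first-set arrays. It fell in hypoxia by 0.24 on the log2 scale (SE 0.06, adjusted p = 0.0268, kept in 2 of 8 fits that left out 1 array) and rose in the second set by 1.11 ± 0.06 (adjusted p = 1.95e-05). Of its 3 other probe sets 1 also fell in hypoxia, by 0.64 on the log2 scale, and the others gave 0.08 and 0.11. No other gene of the 11 was called in hypoxia, where 15.8% of all probe sets were called. None was called between KO and WT, where 0.04% of all probe sets were called. Pkp1, another plakophilin, was higher in the second set by 0.49 ± 0.11 (adjusted p = 0.0133). Perp, a membrane protein of desmosomes, fell from the first to the second set by 1.45 on the log2 scale (SE 0.19, adjusted p = 0.000901), from 8.1, 9.56, 7.42 and 9.1 to 7.17, 7.74, 6.48 and 6.99 in the same order of groups. Its KO minus WT difference of 1.06 ± 0.19 had the same sign in 4 of 4 pairs and did not pass (adjusted p = 0.242). Dsp and Perp were thus lower, and Pkp1 and Pkp2 higher, in the second set. Of the 11 genes 2 were called higher and 1 lower between the sets, against 13.4% and 13.9% of all probe sets.

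**Figure D4:**
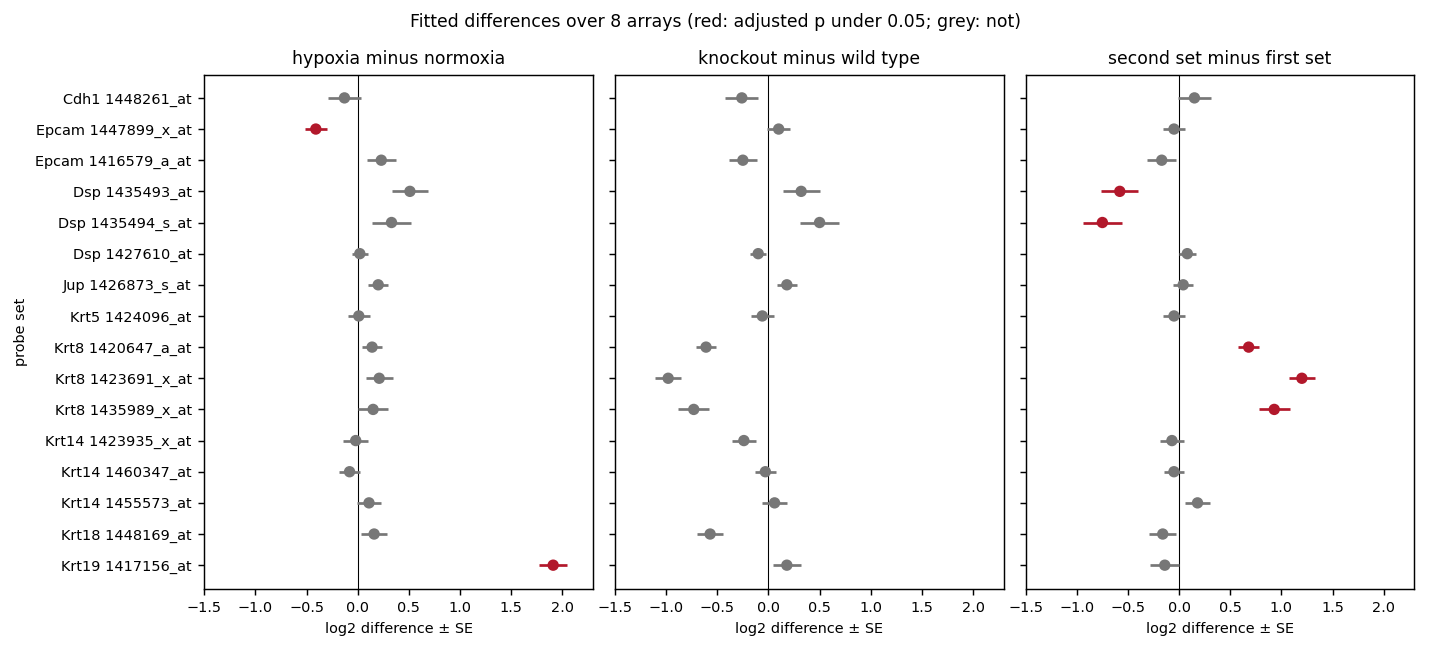
Fitted log2 differences (points) with their standard errors (bars) for the 16 epithelial probe sets in 3 comparisons: hypoxia minus normoxia, knockout minus wild type, and second minus first set; red marks an adjusted p under 0.05. Krt19 (1.91) stands to the right in the first panel, no point is red in the second, and Krt8 and Dsp lie on opposite sides in the third.

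Cdh1, which encodes the cadherin that defines epithelial adherens junctions, gave little signal. Its probe set (1448261_at) read 3.37 and 3.03 in WT normoxia, 2.79 and 2.91 in KO normoxia, 2.97 and 2.98 in WT hypoxia, and 2.41 and 3.22 in KO hypoxia, and 38 of the 44 olfactory receptor probe sets were as bright or brighter. The WT normoxia arrays were above those of KO normoxia and WT hypoxia, but KO and WT arrays overlapped over both conditions, as did hypoxic and normoxic ones. No difference passed: -0.26 ± 0.16 for KO (adjusted p = 0.86) and -0.13 ± 0.16 for hypoxia (adjusted p = 0.682).

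The 2 probe sets of Epcam, an epithelial adhesion protein, disagreed. Epcam 1447899_x_at read 6.23 and 6.31 in WT normoxia, 6.32 and 6.32 in KO normoxia, 5.96 and 5.66 in WT hypoxia, and 5.95 and 5.98 in KO hypoxia. The normoxic arrays were all above the hypoxic ones, and Epcam by this probe set fell in hypoxia by 0.41 on the log2 scale (SE 0.11, 1.33-fold, adjusted p = 0.0331; background 5.59% for arrays that do not overlap in this direction). Epcam 1416579_a_at read 4.10 and 4.15, 3.87 and 3.93, 4.69 and 4.08, and 4.20 and 4.01 in the same order, with a hypoxia difference of 0.23 ± 0.14 in the opposite direction (adjusted p = 0.325). The call on 1447899_x_at held in 1 of 8 fits with an array removed, the one without the WT hypoxia array of the first set (adjusted p between 0.0324 and 0.127), and was lost with random blocks (0.0629), without the block (0.249), and with arrays centred on their median (0.0512) or on fibroblast markers (0.0885).

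The basal keratin Krt5 was flat, and no difference of its partner Krt14 passed. Krt5 (1424096_at) lay between 5.16 and 5.33 on all arrays, a range of 0.17, and the largest of its differences was -0.11. Krt14 1423935_x_at read 4.77 and 4.74 in WT normoxia, 4.10 and 4.27 in KO normoxia, 4.55 and 4.26 in WT hypoxia, and 4.56 and 4.42 in KO hypoxia. The KO normoxia arrays were below those of WT in both sets, while in hypoxia the genotypes overlapped. Krt14 by this probe set differed by -0.57 ± 0.17 between KO and WT in normoxia (adjusted p = 0.959). The other Krt14 probe sets lay between 3.5 and 3.78 (1460347_at) and between 3.31 and 3.82 (1455573_at), and 13 of the 44 olfactory receptor probe sets were as bright or brighter than each.

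Calls in other epithelial lists are given here by list. Over all probe sets the shares called were 15.8% in hypoxia, 0.04% between KO and WT and 27.2% between the sets. Of 12 other keratins 8 had means within the olfactory range, and Krt20, an intestinal and urothelial keratin, was the one called: it rose by 1.79 ± 0.12 in the second set (adjusted p = 4.23e-05) and fell in hypoxia by 0.43 on the log2 scale (SE 0.12, adjusted p = 0.0452, kept in 2 of 8 fits that left out 1 array). Krt20 read 5.9, 6.24, 5.28 and 5.92 in the first set and 7.69, 7.93, 7.45 and 7.41 in the second, with no overlap between sets, as for Krt8 1423691_x_at. Of 11 tight junction and apical polarity genes, 7 were within the olfactory range and 1 was called, the claudin Cldn4 in the second set (0.39 ± 0.11, adjusted p = 0.0268), which no fit that left out 1 array kept (0 of 8). Of 19 epithelial regulators and surface proteins, 18 were measured, 12 were within the olfactory range and none was called in hypoxia, KO or the set; Cdh3, the P-cadherin gene with the highest mean of the list (6.72), differed by -0.10 ± 0.11 in hypoxia (adjusted p = 0.63).

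Among 7 of 8 hemidesmosome genes measured, the integrin chain Itga6 fell in KO by 0.68 on the log2 scale (SE 0.071, adjusted p = 0.0299), lower in 4 of 4 pairs. Its second probe set gave -0.73 without passing (adjusted p = 0.0733), and 0 of 8 fits that left out 1 array kept the call. Itga6 read 9.88, 9.28, 9.94 and 8.98 in the first set and 9.28, 8.99, 9.53 and 8.67 in the second, so KO was below WT within each set, as for Krt8 and Krt18. The probe sets disagreed on hypoxia, at -0.08 (adjusted p = 0.555) for the first and 0.88 ± 0.095 (adjusted p = 0.000876) for the second. The 7 partners of adherens junctions, which mesenchymal cells use as well, all lay above the olfactory range. By the brightest probe set of each gene, 1 was higher and 2 lower in hypoxia, against 7.49% and 8.31% of all probe sets. Nectin3, an adhesion receptor, was the 1 that rose (0.31 ± 0.07, adjusted p = 0.0186), a call that held in 3 of 8 fits with an array removed. Of its 5 other probe sets, which ran from -0.1 to 0.5, 2 were called higher. Ctnnd1, also of the 7, was not called by its brightest probe set. Of its 2 other probe sets, which ran from -0.66 to -0.16, 1 was called lower. Vcl, which encodes vinculin, fell by 0.33 on the log2 scale (SE 0.069, adjusted p = 0.0132) and Ctnnb1, the beta-catenin gene, by 0.13 (SE 0.036, adjusted p = 0.0411); these were named after their values were seen.

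The transcriptional repressors of epithelial genes were present throughout, none of the 8 within the olfactory range. In hypoxia 3 of the 8 rose and 1 fell, against 7.49% and 8.31% of all probe sets. Those shares include dim probe sets, while the list takes the brightest probe set of each gene. With 1 probe set per gene and a filter at the 25th percentile, 3922 of 13647 were called in hypoxia. The list median was 0.22 against 0.003 over all probe sets, and none of the 8 was called between KO and WT. Twist2 read 9.6, 8.99, 10.24 and 9.78 in the first set and 9.74, 9.62, 10.42 and 10.25 in the second, with every hypoxic array above its normoxic partner. Twist2 rose by 0.69 ± 0.088 (adjusted p = 0.00172), its relative Twist1 by 0.42 ± 0.075 (adjusted p = 0.0074) and Tcf3, an E protein named after its value was seen, by 0.37 ± 0.089 (adjusted p = 0.0264). Zeb1 fell by 0.33 on the log2 scale (SE 0.059, adjusted p = 0.00785), and its 3 other probe sets ran from -0.81 to -0.03 without a call. Snai1 (0.33 ± 0.14, adjusted p = 0.16), Snai2 (0.01, adjusted p = 0.956) and Zeb2 (0.12, adjusted p = 0.38) did not pass, but of the 4 other Zeb2 probe sets, which ran from -0.45 to 0.47, 1 was called higher. The mesenchymal cadherin Cdh2 differed by 0.30 in hypoxia (adjusted p = 0.0619) and Vim by -0.02.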

How the data were processed

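RNA from 8 samples was hybridised to 1-colour Affymetrix mouse arrays, starting from 5 ug of total RNA per array per the labels' protocols. The deposited values are log2 intensities summarised by RMA, per the submitters' processing notes; its version and settings are not given in those notes. They ran from 2.09 to 14.71, array medians were 5.01 to 5.12, and the number of arrays limits the precision. Gene names came from the array platform's annotation: 34945 of 45037 carried 1 symbol, 932 several (not used) and 9160 were unlisted; 34741 matched a RefSeq gene.

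Group means with the set as a fixed block were fitted with limma 3.58.1 in R 4.3.3 (eBayes with trend, 3 residual degrees of freedom), with Benjamini-Hochberg adjustment over all probe sets and no filter; 14 of the 16 epithelial probe sets lay above the 25th percentile. The set is taken from the numbering in the sample titles, and same-set arrays deviated together (correlations of 0.535 to 0.728 between groups). The procedure was tested on simulated data. Lists used, by the probe set of highest mean of each gene, up to 4 called genes with the smallest adjusted p, or the highest mean where none was called; Egln2, Vim, Cdh2, the Snai, Zeb and Twist genes, and the 5 nearest patterns of the 2 epithelial genes of widest range were also named. The epithelial genes and all lists were chosen with earlier results of these data known. Alternatives were no block, a random block, a filter at the 25th percentile, 1 probe set per gene with such a filter, no variance trend, 2 other scalings, and leaving out each array. The fit with 1 probe set per gene kept 13647 of 18193 genes. Probe sets whose name ends in _x_at or _s_at can bind related transcripts.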

Additional observations from a re-analysis of the deposited data

Results flagged for a closer look

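Krt14 1423935_x_at differed in opposite directions with oxygen in the 2 genotypes on every pair of arrays. Its hypoxia minus normoxia difference was -0.22 and -0.48 in WT and 0.46 and 0.15 in KO, in the first and second set. The interaction was 0.66 ± 0.24 (limma, unadjusted p = 0.0226, adjusted p = 0.998), so the difference did not pass, and the other 2 Krt14 probe sets gave interactions of -0.03 and 0.19 (adjusted p = 0.998 for both).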

How the results depend on the processing

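Counts of epithelial probe sets called, out of 16, moved as follows. Without the replicate block, the count for WT in hypoxia went from 1 to 0, for KO in hypoxia from 1 to 0, and for hypoxia over both genotypes from 2 to 1; a random block also gave 1 for the last. With arrays centred on their median that count was 1 as well. Centring on fibroblast markers gave 1 for KO against WT (0 as reported) and 2 for WT in hypoxia; it also put the median of all probe sets at -0.19 between the sets (0.008 as reported) and at 0.12 for KO in hypoxia (0.02 as reported). With 1 probe set per gene and a filter, where 8 epithelial probe sets were tested, the counts were 2 for WT in hypoxia and 2 for the set. Leaving out each array gave 0 to 1 for KO in hypoxia, 1 to 2 for hypoxia over both genotypes and 3 to 5 for the set. Counting each epithelial difference under each alternative, 1776 values kept their side of the threshold, 26 lost it and 6 gained it; the cause was not tested. No called difference changed sign, but uncalled ones could, as for Cdh1 between genotypes in hypoxia (-0.6 to 0.28 when leaving out an array). The set difference could not be had without the set as a fixed block. The probe sets of Cdh1, Dsp and Krt14 and Epcam 1416579_a_at had means within the olfactory range, the called Dsp ones at its upper end, so their signal over background limits what they can show.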
